A study of Mus musculus with 12 samples.

Results

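The genes of potassium channel subunits were examined in cultured mouse oligodendrocytes (OLs) in which the transcription factor gene Egr2 had been targeted by RNA interference. Members were chosen by symbol alone, as every gene written Kcn, a family in lower case letters and a number, which gave 92 of the 56860 named genes in the count table. The cells were primary O4+ cells bead-sorted from the cortex of newborn C57BL/6J mice, grown with PDGF-AA and then differentiated with insulin, T3 and CNTF. The libraries are labelled as medial prefrontal cortex, while the methods of the study name the cortex as the source. 6 libraries came from OLs treated with siEgr2 and 6 from OLs treated with the scrambled control (siNC), all harvested at 48 h. The study describes the reagent as an siRNA in one place and as an interfering plasmid in another. No source says that the 6 libraries of a group came from separate cultures or animals, so p-values measure only the spread between these libraries.

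Potassium channels let potassium ions cross the membrane and so set the resting potential and end electrical signals. Voltage-gated channels open when the membrane depolarizes, calcium-activated channels open when calcium rises in the cell, inward rectifiers pass potassium more easily into the cell than out of it, and two-pore channels carry a steady leak. Auxiliary subunits form no pore of their own and change how the pore subunits open or reach the membrane. In the glia of the brain, Kcnj10 encodes Kir4.1, the inward rectifier that takes up potassium released by active axons, and its loss from OLs is known to disturb potassium clearance around myelinated axons.

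The feature shared by the pore subunits, and not by the auxiliary ones, is the selectivity filter, a short stretch of the pore that lets potassium pass and holds back sodium. A pattern of 5 codons was searched in the coding sequence of 1 transcript per gene (GENCODE M21, mouse build GRCm38). The pattern was threonine or serine, then valine, isoleucine, threonine or leucine, then glycine, then tyrosine, phenylalanine or leucine, then glycine. It was present in 63 of 63 pore subunits other than the two-pore family, and it was present at 2 places in 14 of 14 two-pore subunits. It was present in 0 of 15 auxiliary subunits and in 347 of 21739 genes with a coding transcript (1.6%). The match describes the letters only and is no test, since the pattern is wide enough to take in both Kcnk1 spellings below. The stretches below come from members whose values are described later, and they show how the filter is spelled in channels of different gating. The capitals mark the 15 bases of the 5 codons.
Kcna6: atgaccACGGTAGGTTATGGGgacatgtac
Kcnd2: atgacaACACTGGGGTATGGCgacatggta
Kcnf1: atgaccACAGTGGGCTATGGTgacatctac
Kcnk1, first pore: ctctccACCACAGGCTATGGCcacacggtg
Kcnk1, second pore: ctgagcACCATCGGCCTGGGGgactatgtt

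The libraries differed in depth and composition by group. Counts on named genes ranged from 28682946 to 39383014 in siNC and from 8034251 to 16683677 in siEgr2. The ribosomal RNA gene Rn18s-rs5 took 0.142% to 1.05% of counts in siNC and 10.5% to 16.5% in siEgr2. Refits with every library thinned to the smallest total, and with structural RNA genes left out, are given at the end. Beyond these refits, the part of depth and ribosomal RNA in the results was not tested. Egr2 itself ranged from 3.89 to 7.06 CPM in siNC and from 2.22 to 4.86 CPM in siEgr2. Its log2 fold change was -0.51 (SE 0.21, adjusted p = 0.0981), so the targeted transcript did not pass the test and its groups overlapped.

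Levels are given as CPM, counts scaled to a common library total after adjustment by trimmed mean of M values (TMM). A call required an adjusted p below 0.05 together with a log2 fold change beyond 0.5 in either direction. Of the 92 members, 55 had enough counts to be tested. 9 were called, 5 higher in siEgr2 (Kcna3, Kcna6, Kcnd2, Kcnip3 and Kcnmb4) and 4 lower (among them Kcnf1, Kcnn3 and Kcns3). Over all 16600 genes tested, 7.72% were called, 2.63% higher and 5.08% lower. By adjusted p alone, 7 members were higher and 9 lower, which together is 16 of 55, against 8.57% and 11.3%, or 19.9% in all, of all genes tested. The median log2 fold change was 0.06 over the tested members and 0.0046 over all genes tested, and the members ran from -1.41 to 1.09. 25 of the tested members averaged under 5 CPM in siNC, and 2 of these were called, while 7 of the 30 at 5 CPM or more were called.

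**Figure D1:**
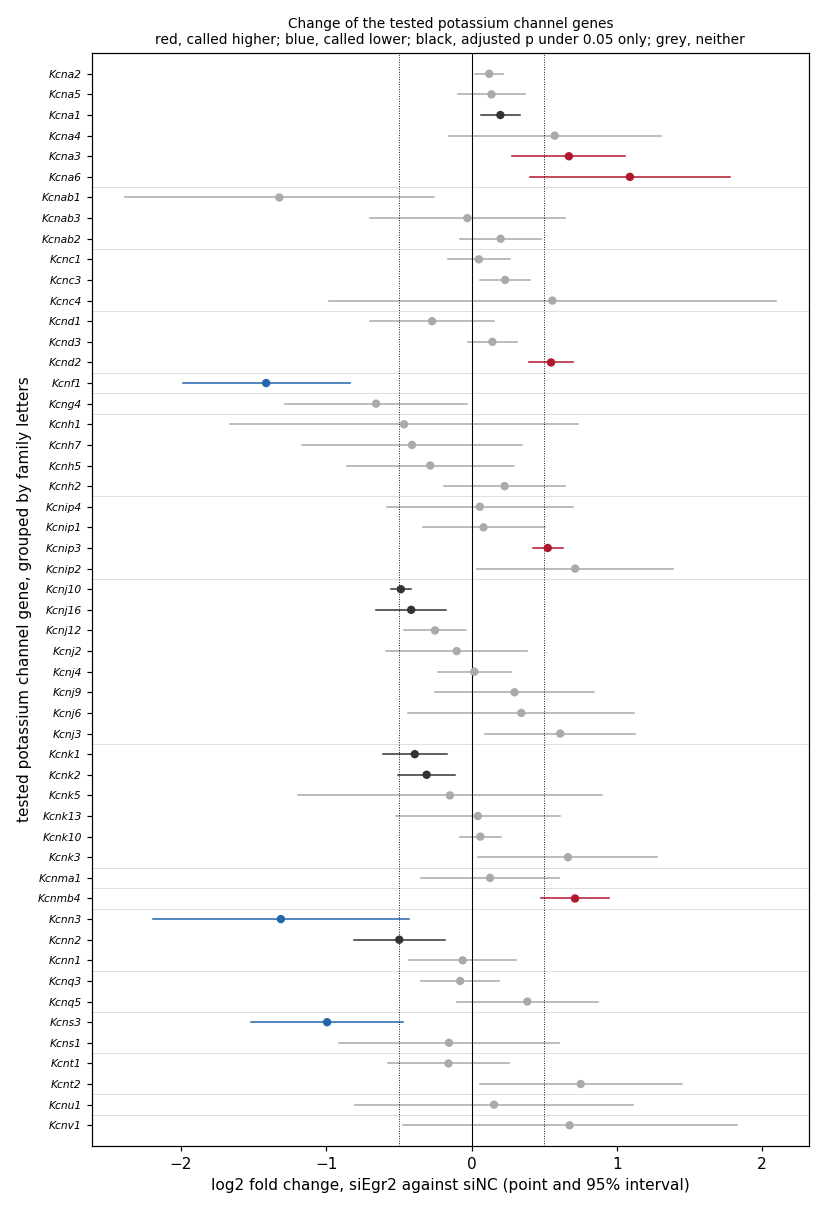
Log2 fold change of 52 tested potassium channel genes, siEgr2 against siNC, with its 95% interval, grouped by family letters (6 libraries per group). Dotted lines mark a log2 fold change of 0.5 in either direction. The called genes reach from Kcnf1 at -1.41 to Kcna6 at 1.09, and Kcnj10 lies just inside the lower dotted line with a narrow interval.

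The inward rectifiers were led by Kcnj10 (chr1:172341210-172374085, plus strand, GRCm38). In siNC it ranged from 877 to 961 CPM with a median of 899, and in siEgr2 from 631 to 691 CPM with a median of 644. Every siEgr2 library lay below every siNC library. The mean was 912 ± 37.1 CPM in siNC and 651 ± 23.1 CPM in siEgr2 (SD, n = 6 each). Its log2 fold change was -0.49 (SE 0.034, adjusted p = 6.53e-08), the smallest adjusted p among the members, and it fell just short of the fold change threshold for a call.

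Kcnj16, which encodes Kir5.1 and joins Kir4.1 in shared channels, fell as well. It ranged from 14.6 to 21.1 CPM in siNC and from 10.1 to 15.7 CPM in siEgr2, and the groups overlapped. Its log2 fold change was -0.42 (SE 0.11, adjusted p = 0.0161), also short of a call. After thinning every library to the smallest total it stood at -0.64 (adjusted p = 0.00358) and was called. Of 15 inward rectifier genes, 8 were tested, none was called, and these 2 passed the adjusted p. The 8 log2 fold changes had 4 positive and 4 negative signs. Kcnj12, which encodes the strong inward rectifier Kir2.2, stood at -0.25 with an adjusted p of 0.0932. Kcnj4, which encodes the related Kir2.3, stood at 0.019 with an adjusted p of 0.935.

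Among voltage-gated pore subunits, 26 of 40 were tested, 3 were called higher and 3 lower. The Kcna family, the Shaker-type Kv1 channels, had 6 of 6 tested members with a positive log2 fold change, of which Kcna3 and Kcna6 were called. With library size alone as the scaling, which placed the median of all genes at -0.18, 4 of the 6 were positive and 2 negative, and 6 of 6 stayed above that median.

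Kcna6, which encodes Kv1.6, was the member with the largest rise and one of the least even. Its 6 siNC libraries stood at 69.5 to 94.3 CPM. In siEgr2, replicates 2, 4 and 5 stood at 217, 265 and 253 CPM, and replicates 1, 3 and 6 at 80.3, 116 and 95.2 CPM. The lowest siEgr2 library lay within the siNC range. The log2 fold change was 1.09 (SE 0.31, adjusted p = 0.0312). The call was lost in 7 of the 12 fits that left out 1 library (siNC replicate 1, 2, 5 or 6, or siEgr2 replicate 2, 4 or 5), with log2 fold changes of 0.92 to 1.23 over the 12. Kcna6 overlaps the antisense gene Gm26673, which had 9.47 to 11.01 CPM in siNC and 9.74 to 15.1 CPM in siEgr2 in its own entry, and whether counting used the strand is not given in the sources used here.

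Kcna3, which encodes Kv1.3, a channel known from proliferating OL precursors and from T cells, rose from a low level. It ranged from 2.45 to 5.09 CPM in siNC and from 4.40 to 6.43 CPM in siEgr2. Replicate 1 of siNC lay among the siEgr2 libraries and the other 5 lay below them. The log2 fold change was 0.67 (SE 0.18, adjusted p = 0.0162). The call was lost after thinning every library to the smallest total (0.27, adjusted p = 0.506) and with library size alone as the scaling (0.48). Kcna1, which encodes the axonal channel Kv1.1, stood at 0.20 (SE 0.063, adjusted p = 0.0362), from 104 to 119 CPM, short of a call. Its adjusted p was not under 0.05 in 8 of the 12 fits that left out 1 library (replicate 3, 4, 5 or 6 of either group). Kcna2, its frequent partner, stood at 0.12 with an adjusted p of 0.0748.

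Kcnd2 (chr6:21215503-21729805, plus strand, GRCm38) encodes Kv4.2, an A-type channel that opens briefly and inactivates. It ranged from 36.4 to 47.8 CPM in siNC, with a median of 46.2, and from 59.3 to 69.7 CPM in siEgr2, with a median of 64.3. The groups did not overlap, and the log2 fold change was 0.55 (SE 0.070, adjusted p = 3.70e-05). The other Kv4 genes were not called, with Kcnd1 at -0.27 (adjusted p = 0.384) and Kcnd3 at 0.14 (adjusted p = 0.227).

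The voltage-gated pore genes called lower included Kcnf1 and Kcns3, which encode silent subunits, which form no working channel alone and alter Kv2 channels when they join them. Kcnf1 (chr12:17172100-17176888, minus strand, GRCm38) had the largest fall of the members. It ranged from 4.22 to 7.997 CPM in siNC and from 1.11 to 3.89 CPM in siEgr2, with no overlap. Its log2 fold change was -1.41 (SE 0.27, adjusted p = 0.00130), on 13 to 52 counts per siEgr2 library.

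Kcns3 ranged from 2.66 to 3.39 CPM in siNC and from 0.682 to 2.29 CPM in siEgr2, with no overlap. It had 7 to 34 counts per siEgr2 library, and its log2 fold change was -0.99 (SE 0.25, adjusted p = 0.00882). After thinning every library to the smallest total it stood at -1.08 and was not called (adjusted p = 0.0751).

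**Figure D2:**
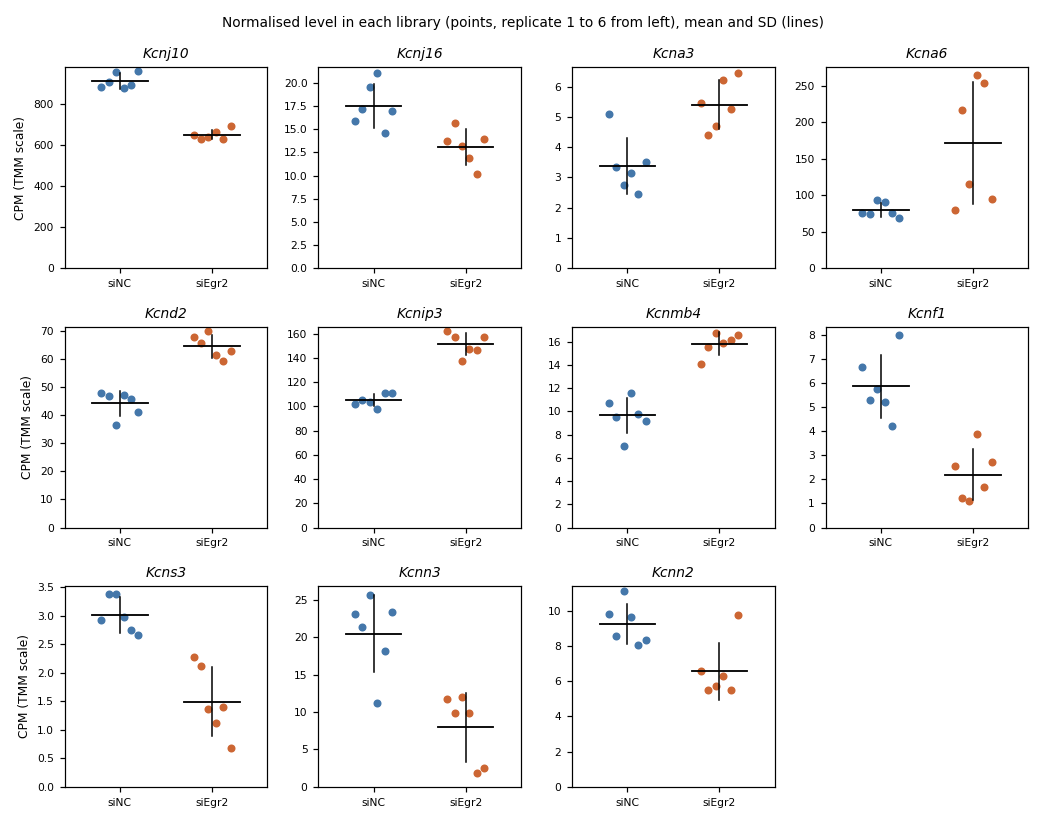
CPM in each library of Kcnj10, Kcnj16, 8 called genes and Kcnn2, with siNC and siEgr2 side by side (points run from replicate 1 to 6, lines give mean and SD, and each vertical axis starts at 0). Kcnj10 separates without overlap at 877 to 961 against 631 to 691 CPM, while Kcna6 in siEgr2 spreads from 80.3 to 265 CPM and Kcnn3 has replicates 5 and 6 of siEgr2 at 1.79 and 2.53 CPM.

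The calcium- or sodium-activated genes had 7 of 8 members tested, with 0 called higher and 1 lower. In the Kcnn family, which encodes the small-conductance calcium-activated SK channels, 3 of 3 tested members had a negative log2 fold change. Kcnn3, which encodes SK3, ranged from 11.2 to 25.6 CPM in siNC. In siEgr2, replicates 1 to 4 stood at 9.87 to 12.05 CPM and replicates 5 and 6 at 1.79 and 2.53 CPM. The lowest siNC library, replicate 4, lay below 2 siEgr2 libraries. The log2 fold change was -1.31 (SE 0.40, adjusted p = 0.0398), and the call was lost in 8 of the 12 fits that left out 1 library (siNC replicate 1, 2, 3, 5 or 6, or siEgr2 replicate 2, 4 or 6), with log2 fold changes of -1.46 to -1.13 over the 12.

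Kcnn2, which encodes SK2, stood just short of a call, at -0.50 (SE 0.15, adjusted p = 0.0247). It ranged from 8.05 to 11.1 CPM in siNC. In siEgr2, 5 libraries lay at 5.51 to 6.59 CPM and replicate 6 at 9.75 CPM. Without that library the log2 fold change was -0.64 and the gene was called. Its adjusted p was not under 0.05 in 4 of the 12 fits that left out 1 library (siNC replicate 1 or 3, or siEgr2 replicate 2 or 3, from 0.0501 to 0.0615), and after thinning every library to the smallest total it stood at -0.21 with an adjusted p of 0.524. Kcnn1, which encodes SK1, stood at -0.061 (adjusted p = 0.847). Kcnma1, the large-conductance BK channel, stood at 0.13 (SE 0.22, adjusted p = 0.748).

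Of 14 two-pore genes, 6 were tested and none was called, while Kcnk1 and Kcnk2 passed the adjusted p in the lower direction. Kcnk1 encodes TWIK-1, a weak leak channel present in glia. It ranged from 17.7 to 21.3 CPM in siNC and from 11.4 to 16.6 CPM in siEgr2 without overlap, a log2 fold change of -0.39 (SE 0.10, adjusted p = 0.0130). With library size alone as the scaling, Kcnk1 stood at -0.57 and was called. Kcnk2 encodes TREK-1, which opens on membrane stretch. It ranged from 22.3 to 27.4 CPM in siNC and from 16.1 to 24.1 CPM in siEgr2, and its log2 fold change was -0.31 (SE 0.093, adjusted p = 0.0264). Its adjusted p was not under 0.05 without siNC replicate 1, 3 or 4 (0.0566, 0.0574 and 0.0530), nor after thinning every library to the smallest total (0.189), where that of Kcnk1 was 0.148. Kcnk10, which encodes the related TREK-2, stood at 0.060 (adjusted p = 0.578).

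The auxiliary subunits had 8 of 15 members tested, with 2 called higher and 0 lower. Kcnip3 encodes a calcium-binding partner of Kv4 channels that is also known as the transcriptional repressor DREAM. It ranged from 97.9 to 111 CPM in siNC and from 138 to 162 CPM in siEgr2, with no overlap, and its log2 fold change was 0.52 (SE 0.048, adjusted p = 1.40e-06). The other Kcnip genes were not called. Kcnip1 stood at 0.083, Kcnip2 at 0.71 and Kcnip4 at 0.057 on the log2 scale, with adjusted p of 0.818, 0.134 and 0.921. Without siEgr2 replicate 6, Kcnip2 was called higher. Kcnab1, a beta subunit of Kv1 channels at 0.886 CPM in siNC and 0.354 CPM in siEgr2, stood at -1.32 with an SE of 0.50 and did not pass the test (adjusted p = 0.0770). It was called lower with DESeq2, with library size alone as the scaling and without siNC replicate 6.

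Kcnmb4 encodes the beta subunit that slows the BK channel in the brain. It ranged from 7.06 to 11.6 CPM in siNC and from 14.0 to 16.7 CPM in siEgr2, with no overlap, a log2 fold change of 0.71 (SE 0.11, adjusted p = 0.000223). The gene overlaps 2 antisense genes, of which Kcnmb4os2 had 0.490 to 1.49 CPM in siNC and 1.27 to 3.20 CPM in siEgr2 and Kcnmb4os1 up to 1.28 CPM, and reads of either strand cannot be told apart here. Across the 55 tested members, 3 had every siEgr2 library above every siNC library (Kcnd2, Kcnip3 and Kcnmb4) and 5 had every one below (among them Kcnf1, Kcnj10, Kcnk1 and Kcns3), where 11.2% of all genes tested showed either.

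Most of the potassium channel message, per length, came from few genes. Divided by the length of its merged exons, Kcnj10 stood at 169 CPM per kb in siNC, 49.2% of the summed level per kb of the 92 members. Kcnip3 followed at 29.7, Kcna1 at 21.7, Kcna6 at 13.5 and Kcna2 at 10.8 CPM per kb. The Kcnj family held 54.9% of the siNC level per kb, Kcna 15.5%, Kcnip 9.09% and Kcnk 5.51%. Summed over the members, the level was 343 CPM per kb in siNC and 328 in siEgr2.

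The family sums per kb were compared by library. The Kcnj sum ranged from 183 to 196 CPM per kb in siNC and from 133 to 144 in siEgr2, and Kcnj10 made up 89.7% of its siNC level per kb, while the 8 tested genes of the family were split 4 and 4 in sign. The Kcna sum ranged from 50.1 to 55.4 CPM per kb in siNC and from 56.5 to 92.6 in siEgr2, where Kcna6 went from 13.5 to 28.8 and Kcna1, the leading gene of the family, from 21.7 to 24.9 CPM per kb. The Kcnip sum ranged from 28.9 to 33.3 CPM per kb in siNC and from 41.0 to 47.8 in siEgr2. None of these 3 sums overlapped between the groups. Over all 20 families, the sums of 4 lay wholly higher in siEgr2 (Kcna, Kcnd, Kcnip and Kcnmb), those of 4 wholly lower (Kcnf, Kcnj, Kcnk and Kcnn), and those of 12 overlapped. Several sums mostly restate 1 gene. Kcnf has 1 member, and in siNC Kcnip3 stood at 29.7, Kcnmb4 at 2.90 and Kcnd2 at 8.57 CPM per kb. The median siNC sums of Kcnip, Kcnmb and Kcnd were 30.9, 3.02 and 13.0. The share of sums without overlap in other gene sets was not computed, so these counts are a description only.

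**Figure D3:**
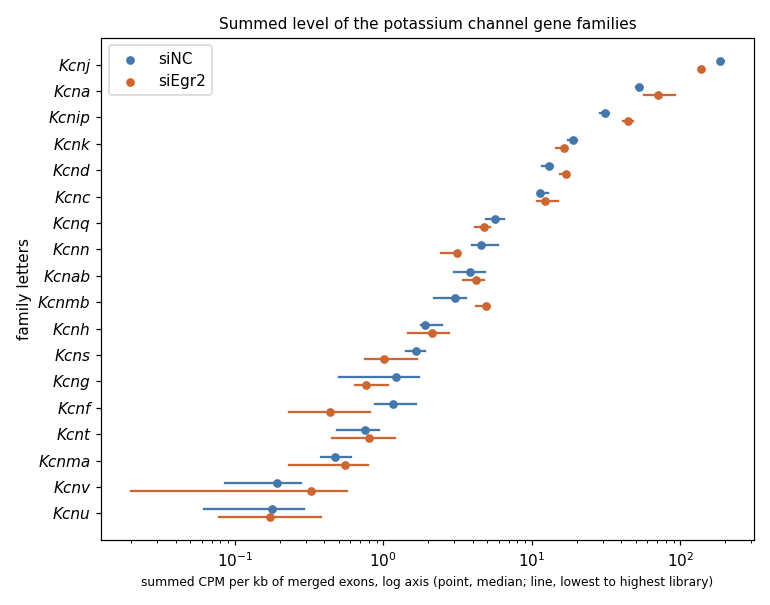
Summed level of each family in CPM per kb of merged exons on a log axis, with the median (point) and the lowest to highest of 6 libraries (line) for siNC and siEgr2. The Kcne genes, none of which was tested, and the Kcnb genes are left out, and the line of Kcnv in siEgr2 is cut off where a library was at 0. The Kcnj sum lies at 183 to 196 in siNC and at 133 to 144 in siEgr2, and Kcna in siEgr2 spreads from 56.5 to 92.6 CPM per kb.

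Low members give the limit of what these libraries can show. Of the 37 members not tested, 9 had no count in any library (Kcne3, Kcnj1, Kcnk12, Kcnk15, Kcnk16, Kcnk18, Kcnmb2, Kcnmb3 and Kcnv2), and the highest count of any untested member was 52. With no filter on low counts, none of the untested members that had a count was called. What size of difference could have been detected in them was not tested. The leading genes per kb of the families without a passing member were Kcnab2 (log2 fold change 0.20, adjusted p = 0.322), Kcnc1 (0.050, adjusted p = 0.780), Kcng4 (-0.66, adjusted p = 0.136), Kcnh2 (0.23, adjusted p = 0.464), Kcnt1 (-0.16, adjusted p = 0.631), Kcnu1 (0.15, adjusted p = 0.851) and Kcnv1 (0.67, adjusted p = 0.428). Of these, Kcng4 was called without siNC replicate 2 (-0.81, adjusted p = 0.0349). Leaving out 1 library moved Kcnab2 between 0.097 and 0.30 (without siNC replicate 2 or 4), Kcnh2 between 0.064 and 0.34 (without siEgr2 replicate 5 or 4), Kcnt1 between -0.28 and -0.058 (without siEgr2 replicate 6 or 2) and Kcnv1 between 0.38 and 0.90 (without siEgr2 replicate 4 or 5), with none of these called.

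Genes of potassium handling outside the rule were taken from a list of 32, the sodium pump and its FXYD regulators, the cation-chloride cotransporters, the HCN channels and partner subunits of Kv and BK channels. 23 were tested, 2 were called higher and 2 lower, with a median log2 fold change of -0.035. The summed level of the list, most of it from the pump genes, was 5118 to 5333 CPM in siNC and 4127 to 4301 CPM in siEgr2, without overlap. The pump genes and their regulators summed to 4386 to 4612 CPM in siNC and to 3364 to 3573 CPM in siEgr2. Atp1b1, a beta subunit of the pump and 1 of the genes called lower, fell from 194 ± 12.6 to 135 ± 11.4 CPM (SD, n = 6 each), a log2 fold change of -0.52 (SE 0.058, adjusted p = 9.31e-06). The genes called higher were the pump regulators Fxyd5 at 0.60 and Fxyd7 at 0.69, with adjusted p of 0.0235 and 0.0336 and under 6 CPM in both groups. The count called higher fell from 2 to 0 with no filter on low counts, after thinning, with library size alone, without siNC replicate 6 and without siEgr2 replicate 3, and to 1 with the replicate block and without siNC replicate 3 or 4 or siEgr2 replicate 1, 4 or 5. The count called lower fell from 2 to 1 without siNC replicate 3 or siEgr2 replicate 4 or 6. By adjusted p alone, 4 were higher and 6 lower. The cotransporters had 0 called of 5 tested, the HCN channels 0 of 4 and the partner subunits 0 of 4.

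Marker lists of cell types were read beside these results, since Kcnj10, Kcnj16 and Kcnk1 are also expressed by astrocytes. The astrocyte list fell, with 0 of 11 genes called higher and 5 lower (Gfap, Aqp4, Aldh1l1, Slc1a2 and Slc1a3) and a median log2 fold change of -0.56. Its summed level was 8297 to 8998 CPM in siNC and 5324 to 6012 CPM in siEgr2. Gfap alone averaged 4777 CPM in siNC, beside 1830 CPM of Mbp, a defining gene of the OLs that the labels name. The precursor list had 2 of 6 genes called higher (Pdgfra and Cspg4) and 0 lower, with sums of 1978 to 2349 and 2664 to 2868 CPM. The myelinating OL list had 0 of 11 called and 3 lower by adjusted p, with sums of 7308 to 8336 and 6866 to 7144 CPM. In bulk samples, fewer cells of a type and less RNA per cell cannot be told apart, and the part of these cell types in the channel results was not tested.

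The remaining lists were smaller in level or moved less. The premyelinating list had 0 of 6 genes called in either direction, with a median of -0.032. The microglia list had 0 of 4 tested genes called, its defining genes Aif1 and Itgam were at 0 in every library, and its sum was 21.6 to 32.2 CPM in siEgr2. The neuron list had 0 of 9 tested genes called higher and 1 lower. The endothelial list had 0 of 3 tested genes called higher and 1 lower, with Cldn5 at 0. The pericyte and fibroblast list had 0 of 7 called higher and 3 lower, with sums of 596 to 1016 CPM in siNC and 601 to 746 in siEgr2. The ependymal list had 0 of 4 tested genes called, with a median of -0.48. Its sums were 65.0 to 85.0 CPM in siNC and 48.0 to 62.5 CPM in siEgr2, without overlap. Foxj1, at -0.48, was its 1 gene past the adjusted p (0.000116).

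Set on one scale, with the siNC mean at 100%, Kcnj10 in siEgr2 ranged from 69.2% to 75.8% and the astrocyte list from 61.2% to 69.1%. The myelinating list ranged from 88.2% to 91.8%. Kcnd2 ranged from 134% to 158%, Kcnip3 from 131% to 155% and the precursor list from 123% to 132%. Kcnj16 ranged from 57.7% to 89.6%, across the range of the astrocyte list and into that of the myelinating list. On these sums, Kcnj10 lay between the astrocyte and myelinating lists, and Kcnd2 and Kcnip3 lay near or above the precursor list. The sums weigh genes by level, with Gfap leading the astrocyte list and Ptprz1 (1063 CPM in siNC) the precursor list. Taken singly, the astrocyte genes had log2 fold changes from -0.85 (Slc1a3) to -0.018 (S100b), with Kcnj10 inside that range. The precursor genes stood at 0.57 (Lhfpl3), 0.56 (Cspg4), 0.56 (Pdgfra), 0.38 (C1ql1), 0.15 (Ptprz1) and 0.047 (Neu4). Kcnd2 stood at 0.55 and Kcnip3 at 0.52.

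**Figure D4:**
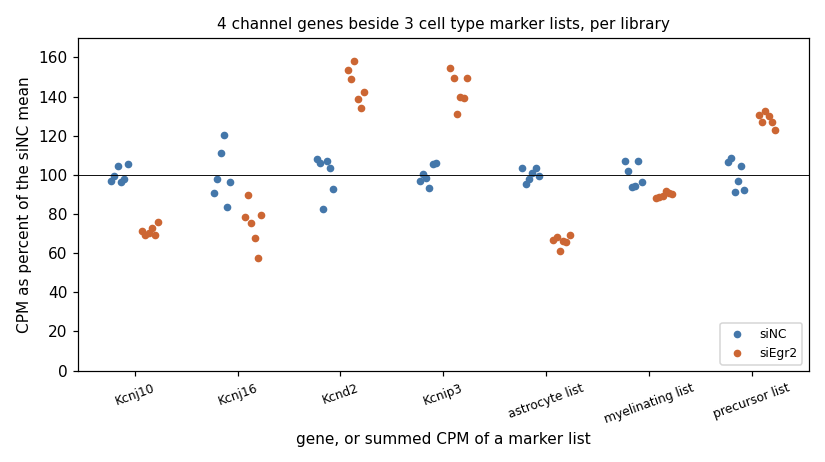
CPM of 4 channel genes and summed CPM of 3 marker lists in each library, as a percent of the siNC mean (6 points per group, line at 100%). In siEgr2, Kcnj10 lies at 69.2% to 75.8%, the summed astrocyte list at 61.2% to 69.1% and the summed myelinating list at 88.2% to 91.8%. Kcnj16 reaches into both ranges at 57.7% to 89.6%. Kcnd2 and Kcnip3 sit above 130%, with the summed precursor list at 123% to 132%. Each sum weighs its genes by level, and the single genes of a list differ, as the text gives.

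The windows around the starts of these genes were searched for the letters of the Egr binding site. RefSeq windows from 250 bases before to 50 after a transcript start (GRCm38.p6) were available for 67 members, in 92 windows. The motif GCGTGGGCG, on either strand, was in 0 of these and in 201 of 32851 windows of all genes (0.612%). The motif GCGGGGGCG, which differs from it at 1 letter, was in 4 of the 92 (4.35%) and in 955 of all windows (2.91%). The 4 genes were Kcna4, Kcng3, Kcnk2 and Kcnt2, of which Kcnk2 passed the adjusted p, Kcna4 and Kcnt2 did not (adjusted p = 0.275 and 0.125) and Kcng3 was not tested. Its match is shown because Kcnk2 is the one of the 4 whose adjusted p was under 0.05, which did not hold in every alternative, with the motif in capitals, on the minus strand at chr1:189343502-189343530, which lies inside the gene as GENCODE M21 draws it (chr1:189207930-189402273).
Kcnk2: cccatcgcgcGCGGGGGCGtcgtcgtccg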

How the data were processed

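The authors sequenced total RNA of cultured OLs with 50 bp reads and deposited raw counts per gene symbol for 12 libraries, with no normalization. The submitters' processing notes name the build mm10, and the aligner, the counter and the use of strand are not given in the sources used here. 1 blank entry, with 0 counts, was left out.

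The test was the robust quasi-likelihood test of edgeR 4.0.16 (R 4.3.3, limma 3.58.1), applied to siEgr2 against siNC without covariates after filterByExpr and TMM scaling. P-values were adjusted by the Benjamini-Hochberg method across all 16600 tested genes, and calls needed an adjusted p below 0.05 and a log2 fold change beyond 0.5 in size. The procedure was also run on simulated counts that gave every gene the same relative spread between libraries. That run does not cover uneven genes such as Kcna6 or the ribosomal RNA difference between the groups. Levels per kb used merged exons of GENCODE M21, which held 92 of 92 members.

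The members and lists were chosen with earlier results of these data known. Genes named were Egr2, Kcnj10, Kcnj16, members called or past the adjusted p, the leading member per kb of each family and called genes of potassium handling, some of which are not reported here. Kcna2, Kcna4, Kcnab1, Kcnd1, Kcnd3, Kcnj4, Kcnj12, Kcnk10, Kcnn1, Kcnt2 and the other Kcnip genes were added as relatives after their values were seen, and single markers as members of lists. Alternatives were other scalings, DESeq2 1.42.0, limma-voom, filters, a replicate block, thinning to 8034251 counts, structural RNA genes left out, other thresholds and each library left out. Genes with few counts were measured less precisely in siEgr2, whose libraries were shallower.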

Additional observations from a re-analysis of the deposited data

Results flagged for a closer look

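In 1 of 46 groups of 6 libraries examined, 1 library lay far from the other 5, where chance gives about 2.3. Kcnn2, the SK2 channel gene, was at 9.75 CPM in siEgr2 replicate 6 and at 5.51 to 6.59 CPM in the other siEgr2 libraries.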

How the results depend on the processing

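Kcnf1 and Kcnmb4 kept their calls in all 22 alternatives that refit the genes, and every one of the 9 called members kept its direction there. Kcna6 lost its call in 10 of the 22 (log2 fold change from 0.91 to 1.23, adjusted p from 0.0018 to 0.093) and Kcnn3 in 12 (from -1.49 to -1.13, adjusted p from 0.013 to 0.085), and Kcnn2 gained one in 9 (from -0.68 to -0.21 over the 22, adjusted p up to 0.52). With library size alone as the scaling, 2 members were called higher and 10 lower, the median of the members was -0.12 beside -0.18 for all genes, 1974 genes were called in all, Kcnj10 was called at -0.67, Kcnj16 at -0.60 and Kcng4 at -0.84, Egr2 passed the threshold at -0.70, and 0 potassium handling genes were called higher and 4 lower. With no filter on low counts, 3 members were called higher and 0 handling genes. The handling genes called higher were 1 with the replicate block and 0 after thinning. Without the fold change threshold, 7 members were higher and 9 lower, and 4 handling genes were higher and 6 lower. Over a log2 fold change of 1, 1 member was higher and 2 lower, and 0 handling genes were called either way. A test against a log2 fold change of 0.5 called 0 members higher and 1 lower (Kcnf1), and 0 handling genes higher and 1 lower, with 237 genes called in all. Over a log2 fold change of 1, 373 genes were called in all, and 3300 without the fold change threshold. After thinning, 892 were called in all, with 5 members higher and 3 lower, Kcnj16 among the lower (-0.64), and Kcnh2 stood at 0.64 (adjusted p = 0.11). With structural RNA genes left out, the same 9 members were called, 5 higher and 4 lower. Leaving out 1 library gave 4 to 6 members higher and 3 to 5 lower, 0 to 2 handling genes higher and 1 to 2 lower, medians from 0.0089 to 0.11 and Egr2 from -0.60 to -0.39. Kcnd2 fell just under the fold change threshold without siNC replicate 3 and Kcnip3 without siEgr2 replicate 1 (both 0.499). Kcnj10 passed it without siEgr2 replicate 6 (-0.51) and with no filter on low counts (-0.53). Kcnd2 (0.36) and Kcnip3 (0.34) also lost their calls with library size alone, and Kcnip3 (0.48) with no filter, all by the fold change threshold. Kcns3 lost its call after thinning at -1.08 (adjusted p = 0.075), and Kcna3 after thinning (0.27) and with library size alone (0.48). With the replicate block, the adjusted p was 0.058 for Kcnk2 and 0.10 for Kcna1. Directions reversed for Kcnc1 (-0.14 with library size alone, -0.021 without siEgr2 replicate 4, and up to 0.10 without another library), Kcnma1 (-0.050 and, without siEgr2 replicate 3, -0.038, and up to 0.28) and Kcnu1 (-0.017, -0.016 without siNC replicate 1 and -0.21 without siEgr2 replicate 3, and up to 0.37), none of which passed the test. The cause was not tested.

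Replicate numbers did not pair the libraries, since same-numbered deviations correlated from -0.023 to 0.055 over 6 pairs and 2 of 6 siNC libraries correlated best with their own number. With the replicate block, 4 members were called higher and 4 lower, and 1124 genes in all.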
